A study of Homo sapiens with 4 samples.

Results

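Caspases and the nucleases they release were represented by 8 genes, namely the initiator caspases CASP8 and CASP9, the adaptor APAF1, the executioner caspase CASP6, the DNA fragmentation factor pair DFFA and DFFB, and the related genes CIDEA and CIDEB. Members were the probes whose RefSeq accession led to one of these symbols. Probes were not searched by gene name, so any probe of these genes without such an accession is not covered. The accessions gave 9 of the 34112 probes on the array, with 2 probes for DFFB and 1 for each of the other genes. Of these, 7 probes of 6 genes gave a signal well above background on all 4 arrays, CIDEA did so on 1 array and APAF1 on none.

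The arrays carried RNA of a pair of stable lines derived from LNCaP, a human prostate cancer cell line that originates from a lymph node metastasis and depends on androgen signalling. Both lines were made in the same order, first with the plasmid pcDNA6/TR, which supplies the Tet repressor, and then with a FLAG-tagged NFκB (AD)-MBD cassette under tetracycline control. NFκB (AD)-MBD joins the transcription activation domain of an NFκB subunit to a methyl-CpG-binding domain, so that it can bring an activator to methylated DNA. TR9-MeTA14 and TR15-MeTA5 were raised from separate Tet repressor lines, TR9 and TR15. The 4 groups were TR9-MeTA14 without tetracycline (-Tet), TR9-MeTA14 after 4 days of tetracycline (+Tet), TR15-MeTA5 -Tet and TR15-MeTA5 +Tet, with 1 array each, and all 4 carry the repressor and the cassette. Cells that lack the cassette were not analysed here, so effects of the drug and of the induced protein cannot be told apart.

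Processed signals came in 1 colour (Cy3) from a single slide, and 60.3% to 71.0% of probes were well above background. Signals are given as deposited, and levels as a percentage of the 75th percentile signal of the same array, which was 617 and 777 for TR9-MeTA14 -Tet and +Tet and 367 and 542 for TR15-MeTA5 -Tet and +Tet. The +Tet arrays were brighter in both lines, so every ratio was taken after this scaling, which divides the raw ratio by 1.26 in TR9-MeTA14 and by 1.48 in TR15-MeTA5. All 7 luminal prostate markers read here (KLK3, KLK2, TMPRSS2, FOLH1, HOXB13, KRT8 and KRT18) were well above background on every array. Of 10 markers of basal, stromal, endothelial and blood cells, 6 were above background on no array, among them the basal markers KRT5, KRT14 and TP63, and 3 (COL1A1, VWF and PTPRC) were above it on all 4.

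Caspases are cysteine proteases made as inactive precursors. CASP8 is activated at death receptors, and CASP9 is activated on the apoptosome, a wheel that APAF1 forms once cytochrome c leaves the mitochondria. Executioner caspases then cleave many proteins, lamins among them in the case of CASP6. DFFB is the caspase-activated DNase that cuts chromatin between nucleosomes, and DFFA (ICAD) is its chaperone and inhibitor until a caspase cuts it. CIDEA and CIDEB share the CIDE-N domain with both DFF proteins. They were first described as promoters of cell death and also work on lipid droplets, CIDEA in brown fat and CIDEB in liver.

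Since the cassette binds methylated CpG, the promoters of the 3 genes with the largest TR9-MeTA14 ratios (CASP6, CASP9 and CIDEB) are shown next to those of CASP8 and of CIDEA. Each is a RefSeq promoter window of assembly GRCh38.p14 with 250 bases before and 50 after an annotated start, written 5′ to 3′ on the strand of the gene, and capitals mark every CpG. CASP6 is at chr4:109703396-109703695 (minus strand). CASP9 is at chr1:15524166-15524465 (minus strand). CIDEB has a window at chr14:24311386-24311685 and another at chr14:24307928-24308227 (both minus strand). CASP8 is at chr2:201233213-201233512 (plus strand) and CIDEA at chr18:12254111-12254410 (plus strand).
CASP6: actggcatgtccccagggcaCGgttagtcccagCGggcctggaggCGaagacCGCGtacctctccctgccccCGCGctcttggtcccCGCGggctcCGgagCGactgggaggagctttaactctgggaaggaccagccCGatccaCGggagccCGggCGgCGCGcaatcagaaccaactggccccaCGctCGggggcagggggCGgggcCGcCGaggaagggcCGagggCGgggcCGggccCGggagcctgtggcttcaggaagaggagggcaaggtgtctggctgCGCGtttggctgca
CASP9: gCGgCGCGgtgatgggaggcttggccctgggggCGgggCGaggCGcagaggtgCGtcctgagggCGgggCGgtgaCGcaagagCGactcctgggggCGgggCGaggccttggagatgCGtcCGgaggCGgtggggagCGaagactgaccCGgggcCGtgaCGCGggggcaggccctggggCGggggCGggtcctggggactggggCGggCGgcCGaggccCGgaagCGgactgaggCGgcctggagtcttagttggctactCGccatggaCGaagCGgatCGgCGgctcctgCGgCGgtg
CIDEB, CpG-dense window: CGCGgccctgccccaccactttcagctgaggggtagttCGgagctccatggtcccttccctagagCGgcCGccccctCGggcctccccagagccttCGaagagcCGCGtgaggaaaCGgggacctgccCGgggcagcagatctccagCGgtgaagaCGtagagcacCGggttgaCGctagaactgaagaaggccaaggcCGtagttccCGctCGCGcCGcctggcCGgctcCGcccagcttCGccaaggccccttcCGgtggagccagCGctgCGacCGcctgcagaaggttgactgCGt
CIDEB, CpG-poor window: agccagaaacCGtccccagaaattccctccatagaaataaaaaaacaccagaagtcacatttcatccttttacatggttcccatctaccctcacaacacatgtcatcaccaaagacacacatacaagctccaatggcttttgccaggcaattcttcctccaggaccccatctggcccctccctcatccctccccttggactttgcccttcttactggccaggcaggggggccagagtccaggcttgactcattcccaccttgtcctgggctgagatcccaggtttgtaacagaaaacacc
CASP8: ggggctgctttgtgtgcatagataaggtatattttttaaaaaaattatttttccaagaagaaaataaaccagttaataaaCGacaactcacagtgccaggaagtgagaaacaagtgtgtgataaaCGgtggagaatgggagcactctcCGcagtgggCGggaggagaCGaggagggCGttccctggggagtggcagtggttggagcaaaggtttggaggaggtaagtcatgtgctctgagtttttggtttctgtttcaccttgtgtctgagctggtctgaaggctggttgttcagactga
CIDEA: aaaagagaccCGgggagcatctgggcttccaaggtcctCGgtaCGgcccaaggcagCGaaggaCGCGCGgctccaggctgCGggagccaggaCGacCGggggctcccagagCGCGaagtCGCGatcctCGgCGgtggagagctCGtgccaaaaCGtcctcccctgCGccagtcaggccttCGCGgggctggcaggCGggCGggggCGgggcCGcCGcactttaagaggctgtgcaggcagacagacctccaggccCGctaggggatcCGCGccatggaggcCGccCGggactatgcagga

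The windows differed in CpG content. Over 22199 windows of protein-coding genes the median was 21 CpG per 300 bases, with quartiles at 7 and 31. CASP6 had 28 CpG and CIDEA 31, while the pair of CASP9 windows had 36 and 30. The CIDEB windows had 28 and 1, so the RefSeq starts of this gene differ most among the members. All 3 CASP8 windows were CpG-poor, with 6, 5 and 6. DFFA had 27 and APAF1 42, and 7.50% of all windows held as many as APAF1 or more. The GC box, searched as GGGCGG on both strands, lay in 56.3% of all windows. It was found 3 times each in the CASP6 and CIDEA windows, 8 and 9 times in the CASP9 windows, and 2 times in the CpG-dense but not in the CpG-poor CIDEB window. Methylation was not measured on these arrays, and the CpG count is a property of the reference sequence only.

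**Figure D1:**
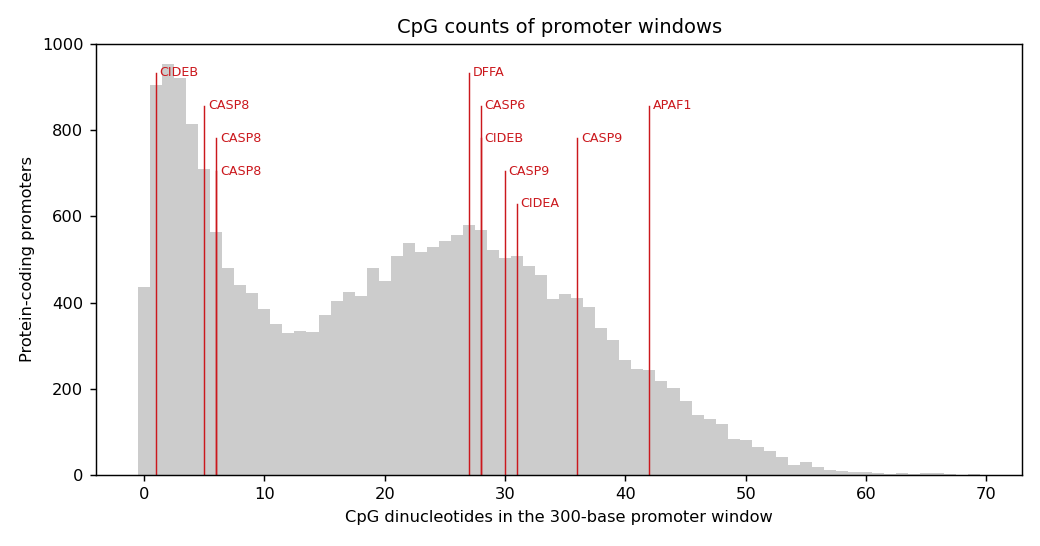
Number of protein-coding RefSeq promoter windows (y axis) by CpG dinucleotides in the 300-base window (x axis), in grey bars, with a red line for each window of a member gene, whose height only makes room for the name. The 3 CASP8 windows and 1 CIDEB window sat in the CpG-poor mode at 1 to 6, and all other member windows at 27 to 42.

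Among the initiator genes, CASP9 was the one that differed most with tetracycline, and in TR9-MeTA14 alone by more than 2-fold. Its processed signal (probe A_23_P97309) was 592 in TR9-MeTA14 -Tet and 1714 in +Tet, and 309 and 476 in TR15-MeTA5. As a percentage of the array's 75th percentile these were 95.9, 221, 84.3 and 87.7. With this scaling 3 arrays lay close together and TR9-MeTA14 +Tet stood above them. Scaled to the 8 spike-in probes instead, TR15-MeTA5 -Tet lay well below TR9-MeTA14 -Tet (log2 ratio -1.24). The level was 2.30-fold higher with tetracycline in TR9-MeTA14 (log2 ratio 1.20, with an error of 0.20 propagated from the Feature Extraction error of each spot) and 1.04-fold higher in TR15-MeTA5 (0.06, error 0.21).

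CASP8 (probe A_24_P157087) was dimmer in TR15-MeTA5 than in TR9-MeTA14 whether or not tetracycline was given. Its signals were 92.1 and 171 in TR9-MeTA14 -Tet and +Tet and 33.6 and 63.2 in TR15-MeTA5, which after scaling were 14.9, 22.0, 9.17 and 11.7% of the 75th percentile. Both lines were higher with tetracycline, by 1.48-fold in TR9-MeTA14 (log2 0.56, error 0.21) and 1.27-fold in TR15-MeTA5 (0.35, error 0.27), and neither reached 2-fold. These log2 ratios were 0.24 and 0.05 with normexp background correction, and 0.70 and 0.78 with spike-in scaling. APAF1 (probe A_23_P36611) read 9.32, 6.75, 3.06 and 3.82 in the same order. These signals were under the lowest well-above-background signal of each array (15.5, 13.9, 15.4 and 19.2), and no fold is given. The adaptor of the apoptosome was therefore not detectable with this probe, whereas its protease partner CASP9 was.

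CASP6 had the largest difference among the members. Its signals (probe A_23_P500799) were 96.3 in TR9-MeTA14 -Tet, 413 in TR9-MeTA14 +Tet, 148 in TR15-MeTA5 -Tet and 240 in TR15-MeTA5 +Tet. The scaled levels were 15.6, 53.2, 40.3 and 44.3% of the 75th percentile. With this scaling the low array was TR9-MeTA14 -Tet and the others were near each other. Spike-in scaling gave log2 ratios of TR15-MeTA5 over TR9-MeTA14 of 0.32 without and -1.03 with tetracycline. TR9-MeTA14 +Tet then stood above the other arrays. With tetracycline CASP6 was 3.41-fold higher in TR9-MeTA14 (log2 1.77, error 0.21), and 6.02% of the probes measured on both arrays had a larger ratio in this line. In TR15-MeTA5 it was 1.10-fold higher (0.13, error 0.21), which is within the error of the ratio. Other processing kept the TR9-MeTA14 log2 ratio between 1.22 (normexp background correction) and 1.91 (spike-in scaling).

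The DFF pair had small ratios. DFFA (probe A_23_P12189), the inhibitor and chaperone subunit, was printed 10 times on each array and is the most precisely measured member. Its mean signals were 1195 and 1919 in TR9-MeTA14 and 517 and 981 in TR15-MeTA5, which scaled to 194, 247, 141 and 181%. The +Tet level was 1.28-fold higher in both lines, with log2 ratios of 0.35 (SE between spots 0.031) and 0.36 (SE 0.027), so both ratios were large against the spot error. That error leaves out the spread between cultures, and by the Feature Extraction error used for the other members, 0.20, each ratio was under 2 errors. With spike-in scaling the ratios were 0.49 and 0.79 and no longer alike. DFFB, the nuclease subunit, read 382, 528, 174 and 254 with its brighter probe (A_23_P44546), or 61.9, 68.0, 47.5 and 46.9% after scaling. It was 1.10-fold higher in TR9-MeTA14 (log2 0.14) and 1.01-fold lower in TR15-MeTA5 (-0.02), and its dimmer probe (A_33_P3277012), with signals of 105, 159, 64.4 and 98.8, gave 1.20-fold (0.27) and 1.04-fold (0.05) higher. None of the DFFB ratios exceeded 2 times its error.

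CIDEB (probe A_23_P37359) resembled CASP6 in that TR9-MeTA14 -Tet was the low array with the main scaling. The log2 gap between the uninduced lines was 1.55, but 0.50 with spike-in scaling. Its signals were 62.6 and 180 in TR9-MeTA14 -Tet and +Tet and 109 and 158 in TR15-MeTA5, or 10.1, 23.2, 29.7 and 29.1% after scaling. It was 2.29-fold higher with tetracycline in TR9-MeTA14 (log2 1.20, error 0.22) and 1.02-fold lower in TR15-MeTA5 (-0.03, error 0.21). The TR9-MeTA14 log2 ratio was 0.54, under 2-fold, when normexp background correction of the median signals was combined with quantile normalization, and 1.34 under spike-in scaling.

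CIDEA (probe A_23_P376704) lay at the edge of detection. Its signals were 3.52 and 9.67 in TR9-MeTA14 -Tet and +Tet and 7.61 and 26.0 in TR15-MeTA5, with Feature Extraction errors of 3.45, 3.22, 3.45 and 5.14. Only TR15-MeTA5 +Tet was flagged well above background. Against the background limit of its -Tet array this is at least 1.14-fold higher, and no fold is given for TR9-MeTA14, where both arrays were not well above background. Differences between the scaled signals taken at face value were 1.13 and 1.21 on the log2 scale, and 3 of the 4 signals in them are under the background limit.

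**Figure D2:**
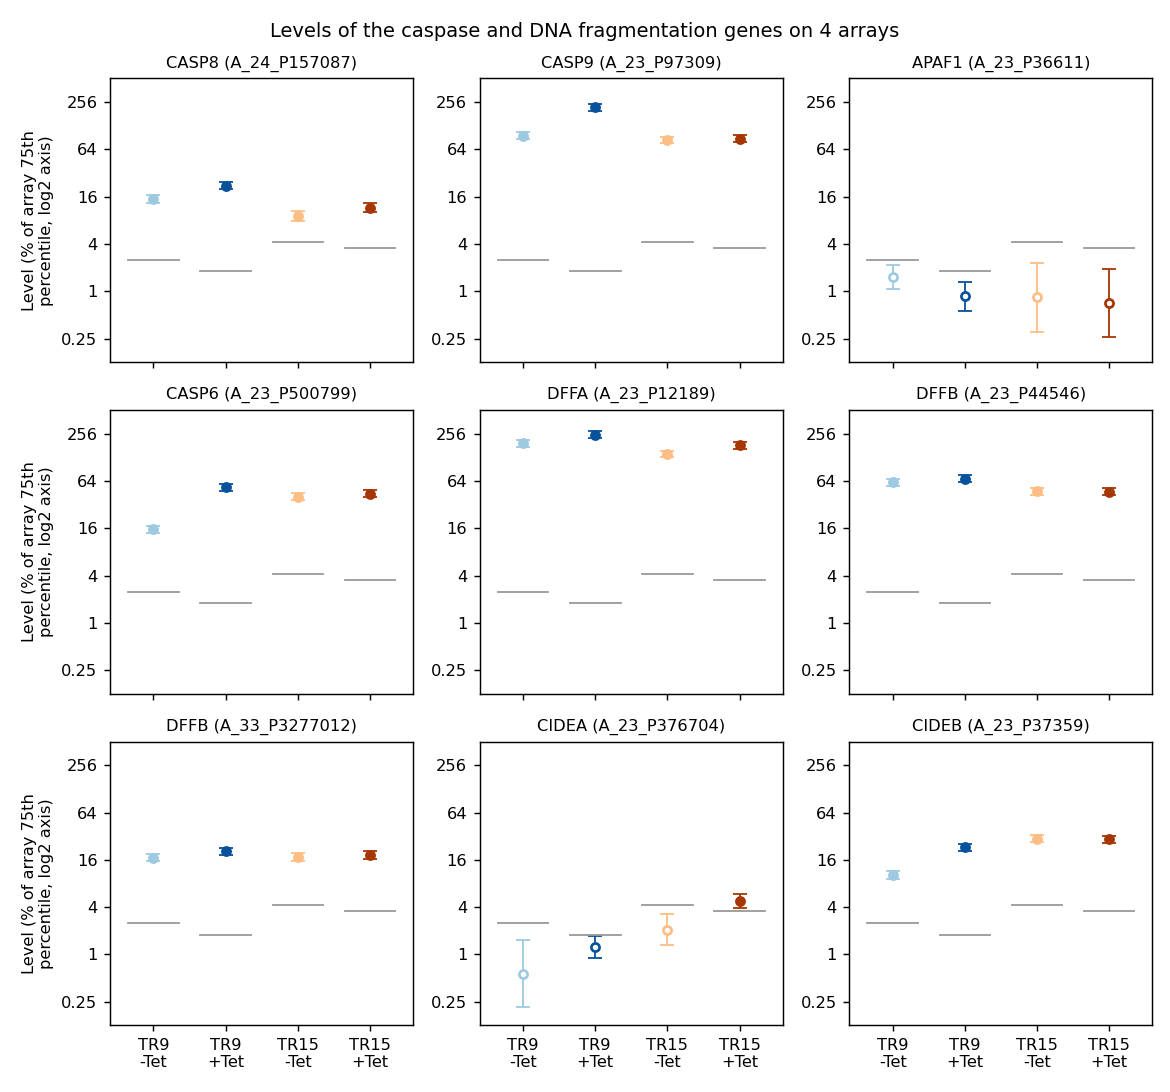
Scaled level of each member probe (y axis, percent of the array's 75th percentile signal, log2 axis) on the 4 arrays (x axis, TR9 for TR9-MeTA14 and TR15 for TR15-MeTA5). Filled points were well above background and open points were not, error bars are 1 Feature Extraction error, and grey lines mark the lowest well-above-background signal of each array. With this scaling CASP6 and CIDEB were low on TR9-MeTA14 -Tet and CASP9 was high on TR9-MeTA14 +Tet. All APAF1 points lay under the grey lines.

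Over the members as a group, 3 of the 6 genes with a ratio in TR9-MeTA14 were at least 2-fold higher with tetracycline (CASP6, CASP9 and CIDEB) and 0 were lower by as much. Over all genes with a ratio in this line, 16.8% passed the same limit upward and 15.1% downward. In TR15-MeTA5 none of 7 member genes passed 2-fold in either direction, against 9.77% higher and 2.21% lower over all genes. Of the 6 members with a ratio in both lines, none was at least 2-fold higher in both, as 8.2% of such genes were. None was at least 2-fold lower in both, as 0.837% were. The median log2 ratio over the members measured on both arrays was 0.88 in TR9-MeTA14 and 0.10 in TR15-MeTA5, beside -0.13 and -0.19 over all genes. All 6 genes measured on every array lay above the median of all probes in both lines with this scaling, and with normexp 5 of 6 did in TR15-MeTA5.

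**Figure D3:**
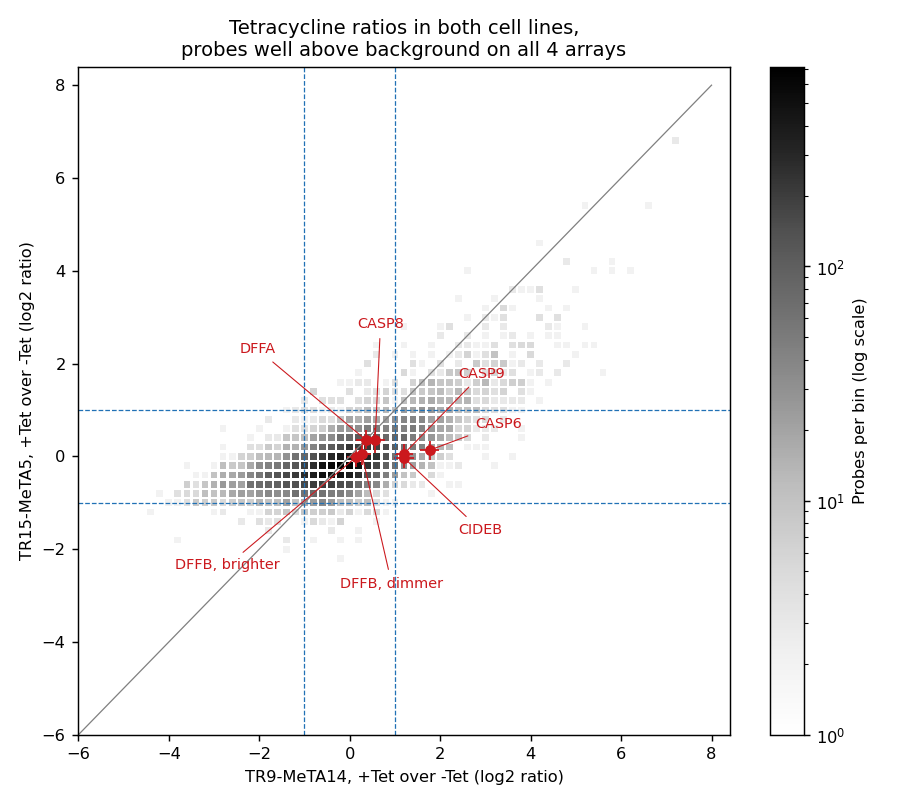
Log2 ratio of +Tet over -Tet in TR9-MeTA14 (x axis) and TR15-MeTA5 (y axis) for 19303 probes (those above background on each of the 4 arrays), binned in grey by number of probes (values over 8 are drawn at 8), with the 7 member probes in red and bars of 1 Feature Extraction error. Dashed lines mark 2-fold and the diagonal marks equal ratios. CASP6, CASP9 and CIDEB lay right of the 2-fold line near a TR15-MeTA5 ratio of 0, and DFFA and CASP8 lay near the diagonal.

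The ratios of the 2 lines were also set against each other. The TR9-MeTA14 log2 ratio exceeded that of TR15-MeTA5 by 1.63 for CASP6 (error 0.30), 1.23 for CIDEB (error 0.31) and 1.14 for CASP9 (error 0.29). For CASP8 and for the DFFB probes the excess was 0.21, 0.16 and 0.21, and for DFFA it was -0.01. With 1 array per group an interaction term leaves no residual degree of freedom, so these differences were not tested, and the error shown covers measurement of the spots and not culture-to-culture spread.

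Tetracycline could be tested as the average effect over both lines, with cell line as a block (limma, Benjamini-Hochberg over 22810 probes). It called none of the 7 member probes at an adjusted p of 0.05, against 2.6% of all probes called higher and 0.0132% called lower. No member probe had an unadjusted limma p under 0.05, against 19.5% of all probes, and the smallest was 0.112 for CASP6. So few member probes cannot be set apart from that share. These shares include probes under background on some arrays. A fit on only probes above background on all 4 arrays, as the member probes were, called 182 of 19303 higher and 0 lower. The average log2 difference of CASP6 was 0.95 with an SE of 0.48 (limma, Benjamini-Hochberg adjusted p = 0.329, higher in 2 of 2 lines). CASP9 had 0.63, SE 0.37 (limma adjusted p = 0.390), and CIDEB had 0.58, SE 0.41 (limma adjusted p = 0.457, higher in 1 of 2 lines). CASP8 had 0.45, SE 0.30 (limma adjusted p = 0.431), DFFA 0.36, SE 0.25 (limma adjusted p = 0.457), and the brighter DFFB probe 0.06, SE 0.26 (limma adjusted p = 0.916). The fit has 1 residual degree of freedom and treats the lines as replicates, so an effect seen in one line widens its own SE.

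Of the 7 luminal markers, 4 (KLK3, KLK2, TMPRSS2 and HOXB13) were at least 2-fold lower with tetracycline in TR9-MeTA14, with a median log2 ratio over the list of -1.65, and none was in TR15-MeTA5, with a median of -0.67. KRT8 was above 0 in TR9-MeTA14 (log2 0.24), and all 7 lay below 0 in TR15-MeTA5 with the main scaling (1 of 7 lay above 0 with spike-in scaling). Of the 10 other cell type markers, 3 had a ratio in both lines, and none of them was 2-fold apart in either. The part of these marker differences in the TR9-MeTA14 ratios of CASP6, CASP9 and CIDEB was not tested. In bulk RNA of this kind, fewer cells of a type and less RNA per cell cannot be told apart.

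Between the lines without tetracycline, TR15-MeTA5 was higher than TR9-MeTA14 for CIDEB by 2.93-fold (log2 1.55, error 0.23) and for CASP6 by 2.59-fold (1.37, error 0.21), which are 2 of the 6 members with a ratio, against 8.17% of genes higher and 5.19% lower by 2-fold or more. CASP8, DFFA, the brighter DFFB probe and CASP9 had log2 ratios of -0.70, -0.46, -0.38 and -0.19, and the dimmer DFFB probe 0.04. In the +Tet arrays CIDEB and CASP6 were 1.25-fold higher and 1.20-fold lower in TR15-MeTA5 (log2 0.32 and -0.26). CASP9 was then 2.52-fold lower in TR15-MeTA5 (-1.33, error 0.20), CASP8 1.89-fold lower (-0.92, error 0.23), and CIDEA at least 2.68-fold higher, in a comparison where 14.2% of genes passed 2-fold upward and 10.4% downward. With this scaling the gap between lines for CASP6 and CIDEB was over 2-fold in uninduced cells and within 1.25-fold after tetracycline, and for CASP9 it was over 2-fold only after tetracycline. These ratios depend on the scaling more than those within a line. Scaled to the 8 spike-in probes, the uninduced log2 ratio of CASP6 was 0.32 and that of CIDEB 0.50, and 4 members were then at least 2-fold lower in TR15-MeTA5. With the same scaling the induced ratios were -1.03 for CASP6 and -0.44 for CIDEB, so the narrowing of the CASP6 gap turned into a widening. For CASP9 the spike-in scaled ratios were -1.24 uninduced and -2.09 induced, so its gap was then over 2-fold before tetracycline as well.

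The same limma fit also gave the difference between the lines averaged over tetracycline, a test added after the values were seen. At a Benjamini-Hochberg adjusted p of 0.05 it called 0 of 7 member probes, and 0.0% of all probes higher and 0.0% lower. Of the members, 1 had an unadjusted p under 0.05, CASP8, whose average level was lower in TR15-MeTA5 by a log2 difference of -0.81, SE 0.30 (limma adjusted p = 0.311, lower in 2 of 2 comparisons). CIDEB had 0.94, SE 0.41 (limma adjusted p = 0.340), CASP9 -0.76, SE 0.37 (limma adjusted p = 0.373), and CASP6 0.55, SE 0.48 (limma adjusted p = 0.565). Over all probes, 3658 of 22810 had an unadjusted p under 0.05 in this comparison.

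**Figure D4:**
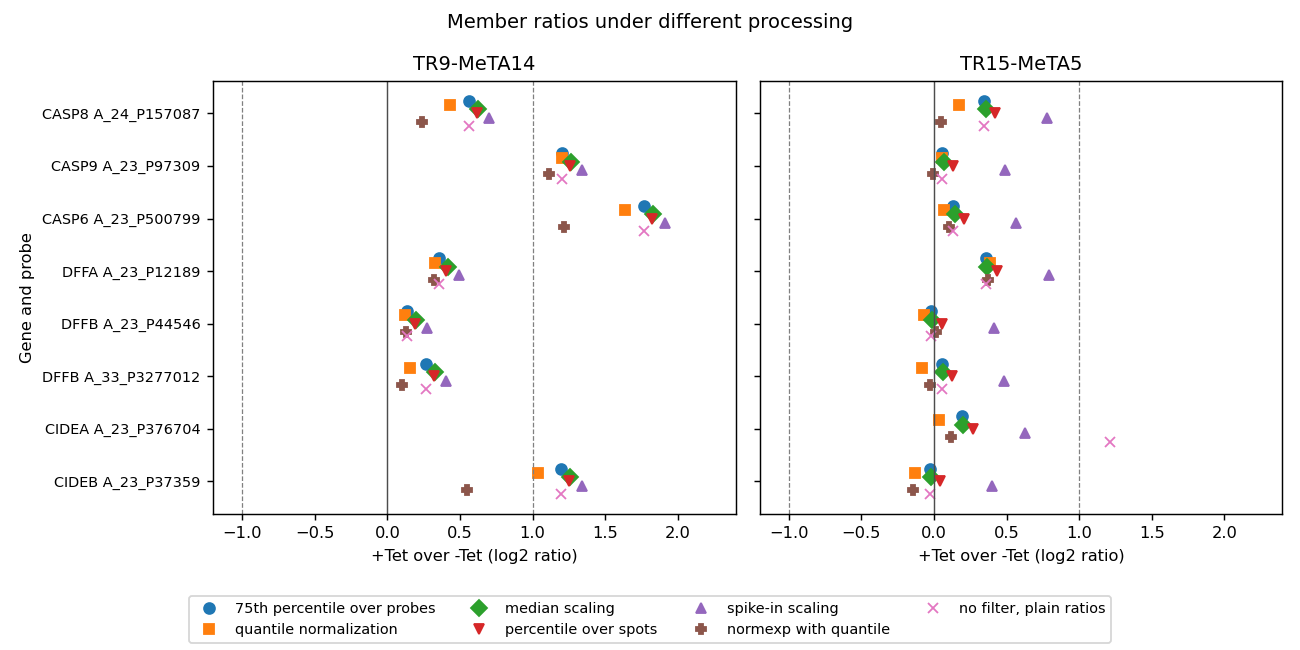
Log2 ratio of +Tet over -Tet (x axis) of each member probe with a ratio (y axis) in TR9-MeTA14 (left) and TR15-MeTA5 (right) under 7 ways of processing, shown by symbol, with dashed lines at 2-fold. CIDEA in TR15-MeTA5 is a lower bound except in the plain ratio, and it has no point in TR9-MeTA14. CASP9 and CASP6 stayed right of 2-fold in TR9-MeTA14 in all 7, CIDEB dropped to 0.54 with normexp, and spike-in scaling moved every TR15-MeTA5 point to the right.

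Further caspases had lower TR9-MeTA14 ratios than CASP6, CASP8 and CASP9. Of the 7 other caspase genes read here, 4 were well above background on all arrays (CASP2, CASP4, CASP5 and CASP10), and CASP1, CASP12 and CASP14 were on none. CASP2 is an initiator-type caspase, CASP4 and CASP5 are inflammatory caspases, and CASP10 is recruited to death receptors like CASP8. CASP2 read 485, 560.3, 387 and 493 in TR9-MeTA14 -Tet and +Tet and TR15-MeTA5 -Tet and +Tet, and CASP10 read 1364, 1676, 613 and 874. With tetracycline the log2 ratios in TR9-MeTA14 were -0.12 for CASP2, -0.33 for CASP4, -0.20 for CASP5 and -0.03 for CASP10, and in TR15-MeTA5 they were -0.21, -0.03, -0.08 and -0.05. None was 2-fold apart in either line by its brightest probe. Over all genes, 16.8% were higher and 15.1% lower by as much in TR9-MeTA14, and 9.77% and 2.21% in TR15-MeTA5. The limma fit called none, and 0 of 4 had an unadjusted p under 0.05, against 19.5% of all probes. The medians were -0.16 and -0.07, and all 4 genes lay below 0 in both lines with the main scaling, but spike-in scaling put 2 of 4 above 0 in TR9-MeTA14 and 4 of 4 in TR15-MeTA5. Second probes gave other values for CASP10 (-1.09 and -0.12 in the lines) and CASP2 (0.30 and -0.62), so the ratio of these genes depended on the probe.

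Caspase regulators and substrates are read here against all genes with a ratio, of which 16.8% were at least 2-fold higher and 15.1% lower in TR9-MeTA14. Of 13 activators and adaptors with a probe (12 with a ratio), 3 were at least 2-fold lower in that line and 0 higher. PMAIP1 (NOXA), a BH3-only protein, was 23.1-fold lower, CYCS (cytochrome c), the trigger of APAF1 assembly, 3.48-fold lower, and PRKCD, a kinase that caspases cleave, 2.62-fold lower. Of 11 caspase inhibitors with a probe (10 with a ratio), 2 were at least 2-fold higher (NAIP 5.40-fold and NOL3 2.32-fold). In the other direction, 4 were lower (BIRC5, BIRC3, CFLAR and AVEN), BIRC5 by 6.92-fold. BIRC3 was dim in TR9-MeTA14 (43.0 and 24.5). In TR15-MeTA5, where its -Tet reading was under background, it was at least 1.65-fold higher. CFLAR is the decoy that blocks CASP8 activation. Its brighter probe was 2.42-fold lower in TR9-MeTA14 and 1.55-fold lower in TR15-MeTA5, but its other probe was 1.26-fold and 1.43-fold higher, so the direction of CFLAR depended on the probe. Of 15 caspase substrates (14 with a ratio), 3 were at least 2-fold higher (SPTAN1 4.54-fold, GSN 3.45-fold and LMNB2 2.08-fold) and 2 lower (LMNB1 3.83-fold and PARP1 2.29-fold). None of these genes was at least 2-fold apart the same way in both lines, as 8.2% of all genes were upward and 0.837% downward. At an adjusted p of 0.05, limma called none of the 35 genes of these lists that it tested. Of all probes, 2.6% were called higher and 0.0132% lower. Of the 35, 8 had an unadjusted limma p under 0.05, a share near the 19.5% of all probes.

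Of the lists read here, that of other DNA fragmentation factors, not all of them nucleases, held the largest TR9-MeTA14 ratio. Of its 14 genes, 2 were at least 2-fold higher in that line and 5 lower, against 16.8% and 15.1% of all genes. The median of the measured log2 ratios was -0.23. DNASE1L2, a DNase I family member known from keratinocytes, read 183 in TR9-MeTA14 -Tet, 18885 in TR9-MeTA14 +Tet, 103 in TR15-MeTA5 -Tet and 2170 in TR15-MeTA5 +Tet. With all 4 signals above background it was 82.0-fold and 14.3-fold higher with tetracycline (limma log2 5.10, SE 0.66, Benjamini-Hochberg adjusted p = 0.0463). Over 12 settings of the limma fit this adjusted p ran from 0.00438 to 0.0585, and it exceeded 0.05 in the fit restricted to probes above background on every array, without the block and without the trend. TOP2A, topoisomerase IIα of dividing cells, was 9.13-fold and 2.07-fold lower (limma adjusted p = 0.199). DNASE1L2 and TOP2A were the only genes of 14 that were at least 2-fold apart the same way in both lines. Over all genes, 8.2% were higher and 0.837% lower in both. CIDEC, the third CIDE gene, stayed under 2-fold with both probes. Its brighter probe read 1044, 1881, 620 and 1111, or 1.43-fold and 1.21-fold higher, and the other probe gave 1.42-fold and 1.23-fold (limma adjusted p of the brighter probe = 0.420). ENDOG, the mitochondrial endonuclease, was 1.39-fold higher in TR9-MeTA14 and 1.18-fold lower in TR15-MeTA5.

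CIDE proteins act on lipid droplets together with perilipins, so 11 lipid droplet genes were read as well. In TR9-MeTA14, 4 of the 10 with a ratio were at least 2-fold higher and 0 lower, against 16.8% and 15.1% of all genes. Of 8 with a ratio in both lines, 2 were that much higher in both, against 8.2% of all genes. The median of the measured log2 ratios was 0.17 in TR9-MeTA14 and 0.13 in TR15-MeTA5. PLIN1, FITM1 and FITM2 stayed under 2-fold where they had a ratio, and G0S2 was above background on no array. PLIN5, which ties droplets to mitochondria, read 19.6, 277, 5.87 and 85.0, which was 11.3-fold higher in TR9-MeTA14 and at least 3.73-fold higher in TR15-MeTA5 (limma log2 3.39, SE 0.33, adjusted p = 0.0271). It was called in 9 of 11 settings and lost with normexp and without the block (highest adjusted p 0.0678). The fit took its TR15-MeTA5 -Tet reading, which was under background, as it was. PLIN3 was 5.03-fold and 2.04-fold higher (limma adjusted p = 0.157). PLIN2, the common coat protein of droplets, was not well above background on either -Tet array. It was at least 1.89-fold and at least 2.64-fold higher with tetracycline. PLIN2 entered the limma fit, which needs 2 arrays above background, only through its +Tet arrays, and its -Tet readings were fitted as they were. Its limma adjusted p of 0.0474 (called in 8 of 11 settings, highest 0.142 with normexp) therefore rests on background readings and lends no support. CIDEB was above 2-fold in 1 line and was not called. Of the lipolysis genes, LIPE (hormone-sensitive lipase) was 2.95-fold higher in TR9-MeTA14 and 1.17-fold in TR15-MeTA5, and ABHD5 was within 1.12-fold in both. PNPLA2 had 1.08-fold and 1.18-fold lower levels with its brighter probe and 1.66-fold and 1.20-fold higher ones with the other, so its direction depended on the probe. BSCL2 (seipin) was 3.56-fold and 1.30-fold higher.

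**Figure D5:**
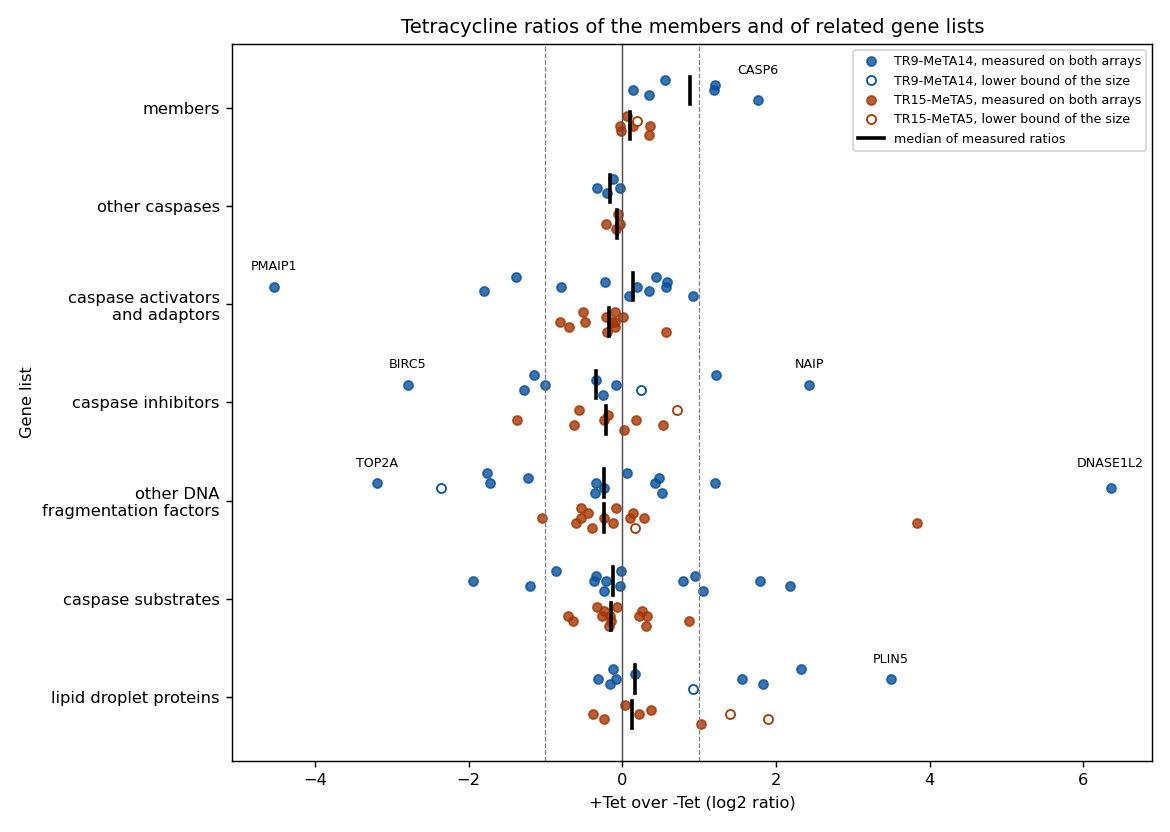
Log2 ratio of +Tet over -Tet (x axis) of the genes in each list (y axis), with TR9-MeTA14 in blue above TR15-MeTA5 in orange, filled points measured on both arrays, open points lower bounds of the size, and a black bar at the median of the measured ratios. Dashed lines mark 2-fold. The member medians were 0.88 and 0.10, and those of the other caspases -0.16 and -0.07.

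Profiles most like that of CASP6, the member with the largest average ratio, were sought among 16063 named probes well above background on all 4 arrays, by the root mean square difference of log2 levels centred over the 4 arrays. The nearest were EXD3 (0.049), IGFLR1 (0.052) and PHF19 (0.068). Their TR9-MeTA14 ratios were 3.75-fold, 3.15-fold and 3.80-fold, and those in TR15-MeTA5 were 1.10-fold, 1.09-fold and 1.15-fold. With 4 values per profile, many probes lie close to any pattern.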

How the data were processed

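Total RNA was hybridised to Agilent whole human genome arrays (4 × 44K, design annotated on hg19), 1 array per group and 4 in all. Per the file headers the authors' scanner files came from Feature Extraction 10.7.3.1, while the submitters' processing notes name version 9.5.1. The deposited intensities used here were processed signals, which are background-subtracted and detrended but not normalized between arrays; the deposited series table held the same values. Outlier spots were left out, log2 intensities of the spots of a probe were averaged, and each array was centred on its 75th percentile over probes that are no controls. A probe was well above background when 50% or more of its kept spots were flagged so, and a ratio against an array below background is a bound against that array's lowest well-above-background signal. For 15 probes no spot was kept on some array. RefSeq accessions paired 25412 of 34112 probes (74.5%) with 1 gene each (19480 genes, assembly GRCh38.p14), and 8700 probes stayed unnamed. A gene stands by its brightest probe.

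Average effects over both lines were fitted with limma 3.58.1 (R 4.3.3, with trend and cell line as block) on probes that passed this flag on 2 or more arrays, with Benjamini-Hochberg adjustment. The procedure was also run on simulated data, with changes of the same size in both lines. That run did not cover a change in a single line. The cut-off of 2-fold follows the methods of the study. Nothing states that the arrays came from separate cultures, so p-values measure only the spread between these samples. The technical SD of a log2 ratio, from probes spotted 10 times, was 0.0875. Other settings were quantile, median and spike-in scaling, the percentile over spots, normexp (offset 50, on median signals) with quantile normalization, all spots kept, other filters and cut-offs, and limma without block or trend. Named genes were all members with every probe paired by accession, and each further caspase. Listed genes at least 2-fold apart the same way in both lines were also named, as were the 3 profiles nearest to the member with the largest average ratio. Other listed genes that the text names were picked after their values were seen. Some genes of the caspase and luminal marker lists are not reported here and were left out of the counts and medians of those lists. Members and gene lists were chosen with earlier results of these data known. The number of arrays limits the precision.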

Additional observations from a re-analysis of the deposited data

Results flagged for a closer look

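Of the members well above background on all arrays, 2 probes had opposite signs in the lines. CIDEB (A_23_P37359) had log2 ratios of 1.20 in TR9-MeTA14 and -0.03 in TR15-MeTA5, a difference of 1.23, and the brighter DFFB probe (A_23_P44546) had 0.14 and -0.02, a difference of 0.16. The differences were not tested, since 1 array per group leaves no residual degree of freedom. Both TR15-MeTA5 ratios were smaller than the technical SD of 0.0875, and with spike-in scaling they were 0.40 and 0.41, the same sign as in TR9-MeTA14.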

How the results depend on the processing

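Replicate numbers could not pair arrays, because each group had 1. The arrays were instead paired by cell line, which was the block of the limma fit. For tetracycline limma called no member in any of 12 settings, the one without that block included, with adjusted p between 0.238 and 0.535 for CASP6. The added comparison of the lines called no member in 11 settings. With spike-in scaling it came close, with a limma adjusted p of 0.0557 for CASP8 and 0.0559 for CASP9. In that setting 9897 of 22810 probes had an unadjusted limma p under 0.05. With a cut-off of 3-fold the members higher in TR9-MeTA14 went from 3 to 1 (CASP6). Plain unfiltered ratios put CIDEA over 2-fold in both lines, which made 4 members higher in TR9-MeTA14 and 1 in TR15-MeTA5. Between the uninduced lines, 2 members were higher in TR15-MeTA5 and 0 with spike-in scaling, normexp or a 3-fold cut-off, and 0 were lower but 4 with spike-in scaling and 1 at 1.5-fold. Between the induced lines, the 1 member higher in TR15-MeTA5 (CIDEA) was lost (0) with spike-in scaling, with normexp, when only probes above background on all 4 arrays were used, and at 3-fold. The 1 member lower there (CASP9) became 2 with quantile normalization, 5 with spike-in scaling, 0 at 3-fold and 2 at 1.5-fold. Pathway genes higher in both lines went from 3 to 6 with spike-in scaling, 1 with normexp and 5 at 1.5-fold. The 1 pathway gene lower in both (TOP2A) became 0 with spike-in scaling, the percentile over spots, normexp and a 3-fold cut-off, and 6 at 1.5-fold. The median of all probes was -0.15 in TR9-MeTA14 and -0.18 in TR15-MeTA5 with the main scaling and -0.01 and 0.25 with spike-in scaling, and the cause was not tested. Probes near background (CIDEA, APAF1, CASP8 in TR15-MeTA5 -Tet and CIDEB in TR9-MeTA14 -Tet) are the least certain, and replicate error is unknown for all members.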
